A study of Mus musculus with 4 samples.

Results

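Expression of 10 genes that drive or restrain the passage of cells from G1 into S phase was followed in whole cochleae of N-myc ko and wild-type mouse embryos. They are the D-type cyclins Ccnd1 (ENSMUSG00000070348), Ccnd2 (ENSMUSG00000000184) and Ccnd3 (ENSMUSG00000034165), and their kinases Cdk4 (ENSMUSG00000006728) and Cdk6 (ENSMUSG00000040274). The kinase Cdk2 (ENSMUSG00000025358) stands with its E-type cyclins Ccne1 (ENSMUSG00000002068) and Ccne2 (ENSMUSG00000028212), and the list ends with the retinoblastoma gene Rb1 (ENSMUSG00000022105) and the E2F factor E2f1 (ENSMUSG00000027490). The genes were chosen by their place in this pathway, as a list of Ensembl gene IDs paired with symbols, and all 10 were found among the 23879 genes of the table. The list was made with earlier results of these data known. The symbols come from that list, since the table itself gives IDs alone. The tissue was the cochlea, the auditory part of the inner ear, taken whole at embryonic day 15. The N-myc ko group has 2 arrays and the wild-type group has 2 arrays, and both groups are labelled with the strains 129/Sv and CD-1. Mutant embryos were identified by PCR. The labels call the 2 samples of a group biological replicates, but the sources used here name neither the allele, nor any Cre driver, nor how many embryos went into a sample. The p-values below therefore cover only the spread among these 4 samples, which may be technical. Values are the authors' RMA expression values on the log2 scale, on which a difference of 1 is a 2-fold difference.

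In the mammalian cell cycle, D-type cyclins bind Cdk4 or Cdk6 and begin the phosphorylation of the retinoblastoma protein, which otherwise holds E2F factors in check. E-type cyclins with Cdk2 carry the phosphorylation further, and freed E2F factors switch on genes of DNA replication. In the embryonic mouse cochlea the progenitors of hair cells and supporting cells leave the cell cycle before they differentiate, and in mice loss of Rb1 lets hair cells divide again. N-myc, encoded by Mycn, belongs to the MYC transcription factors, which bind the E-box CACGTG together with Max. CDK4 is a known MYC target in human cells, and Ccnd2 is a known MYC target in mouse cells.

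Promoter windows of RefSeq on build GRCm38.p6, from 250 bases before to 50 bases after an annotated start site, were at hand for Ccnd3, Cdk4, Cdk6, Cdk2, Ccne1 and E2f1, with 2 windows for Ccnd3. The members with a window were searched on both strands for the E-box CACGTG, which reads the same on either strand, and for the E2F motif in the forms TTTCCCGC, TTTGGCGC, TTTCGCGC and TTTGCCGC. Of all 32851 windows, 7.15% hold the E-box and 2.26% an E2F form. The windows of Cdk4, Cdk6 and Cdk2 were the ones with a match and are shown 5′ to 3′ on the gene's strand, with the matches in capitals, because Cdk4 and Cdk6 are paralogs that differ in E-boxes and Cdk2 was among the genes that fell. No match overlapped another.
Cdk4, chr10:127063285-127063584, plus strand: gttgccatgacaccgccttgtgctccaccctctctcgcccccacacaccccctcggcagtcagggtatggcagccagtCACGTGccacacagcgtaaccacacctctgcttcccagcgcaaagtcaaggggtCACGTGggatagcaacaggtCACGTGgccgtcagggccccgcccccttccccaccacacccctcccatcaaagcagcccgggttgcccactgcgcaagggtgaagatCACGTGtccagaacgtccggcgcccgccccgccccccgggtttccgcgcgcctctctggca
Cdk6, chr5:3343643-3343942, plus strand: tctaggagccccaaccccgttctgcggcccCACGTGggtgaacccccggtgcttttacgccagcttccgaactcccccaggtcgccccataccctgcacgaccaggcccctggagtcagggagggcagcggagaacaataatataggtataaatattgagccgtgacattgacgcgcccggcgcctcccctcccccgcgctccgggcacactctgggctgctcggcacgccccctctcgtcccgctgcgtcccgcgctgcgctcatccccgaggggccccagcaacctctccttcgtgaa
Cdk2, chr10:128705002-128705301, minus strand: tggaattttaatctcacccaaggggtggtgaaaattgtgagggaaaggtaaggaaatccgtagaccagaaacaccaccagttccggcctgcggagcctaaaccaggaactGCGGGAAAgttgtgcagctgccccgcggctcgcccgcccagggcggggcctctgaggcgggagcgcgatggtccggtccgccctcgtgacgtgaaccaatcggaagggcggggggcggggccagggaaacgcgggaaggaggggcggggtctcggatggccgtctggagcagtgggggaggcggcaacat
The Cdk4 window holds 4 E-boxes, which begin at positions -172, -118, -98 and -11 counted from the start site, and it is 1 of 8 windows in the table (0.0244%) with 4 or more. The Cdk6 window holds 1 E-box, at -220. The Cdk2 window holds 1 E2F form, read on the opposite strand, at -140. A match of letters is a description and not a bound site. A window without a match, such as that of E2f1, says nothing on sequence outside it or at other start sites of the gene.

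Rb1 and Cdk2 fell in N-myc ko cochleae, and no member rose. The other 8 members did not pass the test, among them all 3 D-type cyclins and both E-type cyclins. The test was limma on all genes, with positive changes meaning higher values in N-myc ko, and a gene was called at a Benjamini-Hochberg adjusted p of at most 0.14, the limit that the study's design text names. Of all genes, 34.7% were called, 14.9% higher and 19.8% lower, so 2 falls among 10 members is close to the share of falls in the whole table. That balance depended on the scaling: as deposited 3561 genes were higher and 4719 lower, whereas 4687 were higher and 3566 lower after each array was centred on its median, and 2646 were higher and 2316 lower after cyclic loess normalisation. On the deposited values, 14.6% (Cdk4) to 39.4% (E2f1) of the 500 genes nearest each member in mean log2 value were called lower. At an adjusted p under 0.05, Rb1 alone of the members was called, against 15% of all genes in either direction and 8.2% lower. With a rebuilt form of SAM, the test that the study's design text names, Rb1, Cdk2, Cdk4 and E2f1 were lower, but SAM called 58.7% of all genes and placed 32.9% of all genes lower. Mycn itself and the markers of cochlear and neighbouring tissues were not analysed here, because no table at hand pairs the IDs with names.

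Rb1, whose product restrains E2F factors, had log2 values of 8.91 and 8.99 in N-myc ko cochleae, against 9.49 and 9.38 in wild-type cochleae. Both N-myc ko arrays lay below both wild-type arrays, and the distance between the groups was larger than either replicate gap (0.077 in N-myc ko and 0.107 in wild-type). The mean was 8.95 ± 0.05 in N-myc ko and 9.44 ± 0.08 in wild-type cochleae (SD, n = 2 each), which is 1.40-fold lower in N-myc ko. The log2 change was -0.49, with an SE of 0.10, a 95% interval from -0.72 to -0.25 and a limma adjusted p of 0.0297. Its call was kept without any 1 of the 4 arrays, with limma adjusted p between 0.0608 and 0.124. Since these are whole cochleae, fewer cells of a type and less RNA per cell cannot be told apart.

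Cdk2, the kinase of the E-type cyclins, had log2 values of 9.80 and 9.83 in N-myc ko cochleae, against 10.32 and 10.11 in wild-type cochleae. The groups did not overlap, and the wild-type replicates differed by 0.214, a wider gap than for 77.5% of all genes. The mean was 9.82 ± 0.02 in N-myc ko and 10.21 ± 0.15 in wild-type cochleae (SD, n = 2 each), which is 1.32-fold lower in N-myc ko. The log2 change was -0.40 (SE 0.11, 95% interval -0.66 to -0.14, limma adjusted p = 0.0547). The size of the change depended mainly on the wild-type arrays: it was -0.29 with wild-type replicate 1 left out and -0.50 with wild-type replicate 2 left out. Dropping N-myc ko replicate 1 or 2 moved it little, to -0.38 or -0.41. Cdk2 missed the limit when either replicate 1 array was dropped. In such fits the single array left in a group is taken to vary as much as the other group does. A missed limit there does not by itself show that the change came from the dropped array.

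Its cyclin partners differed more between the N-myc ko replicates than between the group means. Ccne1 had log2 values of 9.16 and 9.36 in N-myc ko cochleae, against 9.34 and 9.47 in wild-type cochleae, and the groups overlapped. The log2 change of Ccne1 was -0.15 (95% interval -0.42 to 0.12, limma adjusted p = 0.386). Ccne2 had log2 values of 8.58 and 8.96 in N-myc ko cochleae, against 8.76 and 8.86 in wild-type cochleae. Here N-myc ko replicate 1 was the lowest and N-myc ko replicate 2 the highest of the 4 arrays, and their gap of 0.373 was wider than for 94.1% of all genes. The log2 change of Ccne2 was -0.04, with a 95% interval from -0.38 to 0.30 (limma adjusted p = 0.865).

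**Figure D1:**
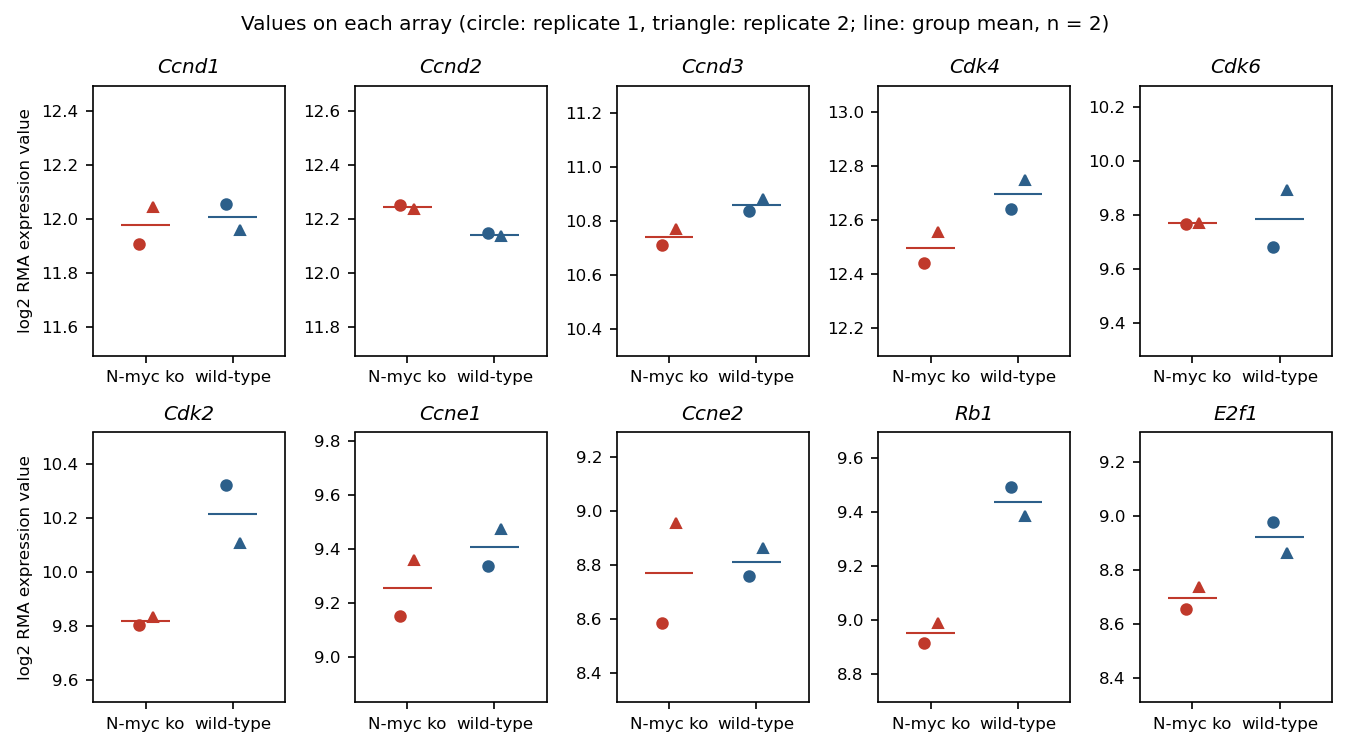
The log2 RMA expression value of each gene on each array, with N-myc ko in red on the left and wild-type in blue on the right, circles for replicate 1, triangles for replicate 2 and a line at the group mean (n = 2). Every panel spans 1 log2 unit. Rb1 and Cdk2 show the widest distance between the groups, while for Ccnd1, Cdk6, Ccne1 and Ccne2 the groups overlap.

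The D-type cyclins, which couple growth signals to the cell cycle, had log2 changes between -0.12 and 0.10, and none passed the test. Ccnd1 had log2 values of 11.91 and 12.05 in N-myc ko cochleae, against 12.06 and 11.96 in wild-type cochleae, and the groups overlapped. Its log2 change was -0.03 (SE 0.10, limma adjusted p = 0.848). The 95% interval, from -0.27 to 0.21 on the log2 scale, runs from 0.827 to 1.16 times the wild-type level.

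Ccnd2 had log2 values of 12.25 and 12.24 in N-myc ko cochleae, against 12.15 and 12.13 in wild-type cochleae. It was the 1 member with a higher mean in N-myc ko cochleae on the deposited values, both N-myc ko arrays lay above both wild-type arrays, and its replicates differed by 0.012 in N-myc ko and 0.013 in wild-type. The log2 change was 0.10 (SE 0.09, 95% interval -0.11 to 0.32, limma adjusted p = 0.445), so it did not pass the test. The SE is wider than the gap between its replicates because limma draws each gene's spread towards that of the other genes.

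Ccnd3 had log2 values of 10.71 and 10.77 in N-myc ko cochleae, against 10.84 and 10.88 in wild-type cochleae. Both N-myc ko arrays lay below both wild-type arrays, by a small distance. The log2 change was -0.12 (SE 0.09, 95% interval -0.34 to 0.10, limma adjusted p = 0.397). After quantile normalisation, which gives the 4 arrays the same distribution of values, the change of Ccnd3 was -0.01.

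Of the kinases of the D-type cyclins, Cdk4 had the larger difference between the groups. Cdk4 had log2 values of 12.44 and 12.55 in N-myc ko cochleae, against 12.64 and 12.75 in wild-type cochleae. The groups did not overlap, and the replicates differed by 0.114 in N-myc ko and 0.106 in wild-type. Its log2 change was -0.20 (SE 0.10, 95% interval -0.44 to 0.04, limma adjusted p = 0.206), so it was not called. With a variance prior that follows brightness, limma gave an adjusted p of 0.103 and Cdk4 was called, as were 34.9% of all genes.

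Cdk6 had log2 values of 9.77 and 9.77 in N-myc ko cochleae, against 9.68 and 9.89 in wild-type cochleae. Both N-myc ko values lay between the wild-type values. The log2 change was -0.02 (SE 0.11, 95% interval -0.27 to 0.24, limma adjusted p = 0.92). The difference between Cdk4 and Cdk6 was therefore also taken within each array, as described below.

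E2f1, a transcription factor that switches on S phase genes, had log2 values of 8.66 and 8.74 in N-myc ko cochleae, against 8.98 and 8.86 in wild-type cochleae. Both N-myc ko arrays lay below both wild-type arrays. The log2 change was -0.22 (SE 0.10, 95% interval -0.46 to 0.01, limma adjusted p = 0.154), which missed the limit. After quantile normalisation the E2f1 values were 8.79 and 8.80 in N-myc ko cochleae, against 8.90 and 8.75 in wild-type cochleae, so that the groups overlapped and the change was -0.03.

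Across the 10 members, the groups did not overlap for 6, of which 1 was higher and 5 were lower in N-myc ko cochleae. The same held for 64.9% of all genes, 28.8% higher and 36.2% lower. On the deposited values 9 members had a change below 0, against 54.4% of all genes, but this count was 6 after median centring, 5 after quantile normalisation and 4 after cyclic loess normalisation. The median log2 change of the members was -0.13, beside -0.03 for all genes. After quantile normalisation the medians were -0.0006 and -0.0092.

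Each member was also set against genes of equal brightness, because the direction of change in this data set goes with the mean log2 value of a gene. For each member the 500 other genes nearest in mean log2 value over the 4 arrays were taken. The medians of these neighbours lay between -0.22 for E2f1 and -0.04 for Cdk4, so the neighbours of every member had a median below 0. Relative to their neighbours, 5 members were lower and 5 were higher in N-myc ko cochleae, and the median of the members' distances was 0.0052. This comparison is a description, with no test.

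Rb1 lay furthest below its neighbours. Its change of -0.49 compared with a neighbour median of -0.20 (quartiles -0.35 and -0.05), a distance of -0.29, and 43 of the 500 neighbours (8.60%) had a more negative change. Cdk2 changed by -0.40 where its neighbours had a median of -0.14 (quartiles -0.29 and -0.01), a distance of -0.26, and 54 of 500 (10.8%) were more negative. The distance of Cdk2 was -0.12 without wild-type replicate 1 and -0.39 without wild-type replicate 2, while that of Rb1 ranged from -0.37 to -0.20 with 1 array left out. Falls were common at these levels: 36.8% of the neighbours of Rb1 and 30.0% of those of Cdk2 were called lower.

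Cdk4, with a change of -0.20 beside a neighbour median of -0.04, lay 0.16 below its neighbours, of which 20.6% were more negative, and its distance was -0.10 without N-myc ko replicate 1. E2f1, Ccnd3 and Ccnd1 were near the middle of theirs, with distances of -0.01, -0.01 and 0.02 on the log2 scale. The change of E2f1, -0.22, was thus close to the median of genes of its brightness. Ccne1 lay 0.03 above its neighbours. The distances of these 4 genes, E2f1, Ccnd3, Ccnd1 and Ccne1, took either sign when 1 array was left out, so the split of 5 and 5 is not a firm count.

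Ccnd2, Cdk6 and Ccne2 lay above theirs by 0.15, 0.15 and 0.17. The neighbours of Cdk6 had a median change of -0.17, and 80.6% of them were more negative than Cdk6. The shares were 81.0% for Ccnd2 and 79.2% for Ccne2. Single arrays carried much of this for Ccne2, whose distance was 0.019 without N-myc ko replicate 2 but 0.32 when N-myc ko replicate 1 was left out. For Cdk6 it was 0.046 without wild-type replicate 1 and 0.24 without wild-type replicate 2, and for Ccnd2 it ranged from 0.13 to 0.17 without 1 array. Few genes are as bright as Ccnd1, Ccnd2 and Cdk4, and the neighbours of Cdk4 span mean log2 values from 11.48 to 13.69. With the 200 or the 1000 nearest genes in place of 500, the distance of Ccnd2 was 0.12 or 0.16, a move wider than its small replicate spread, and those of the other 9 members moved by less than theirs.

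**Figure D2:**
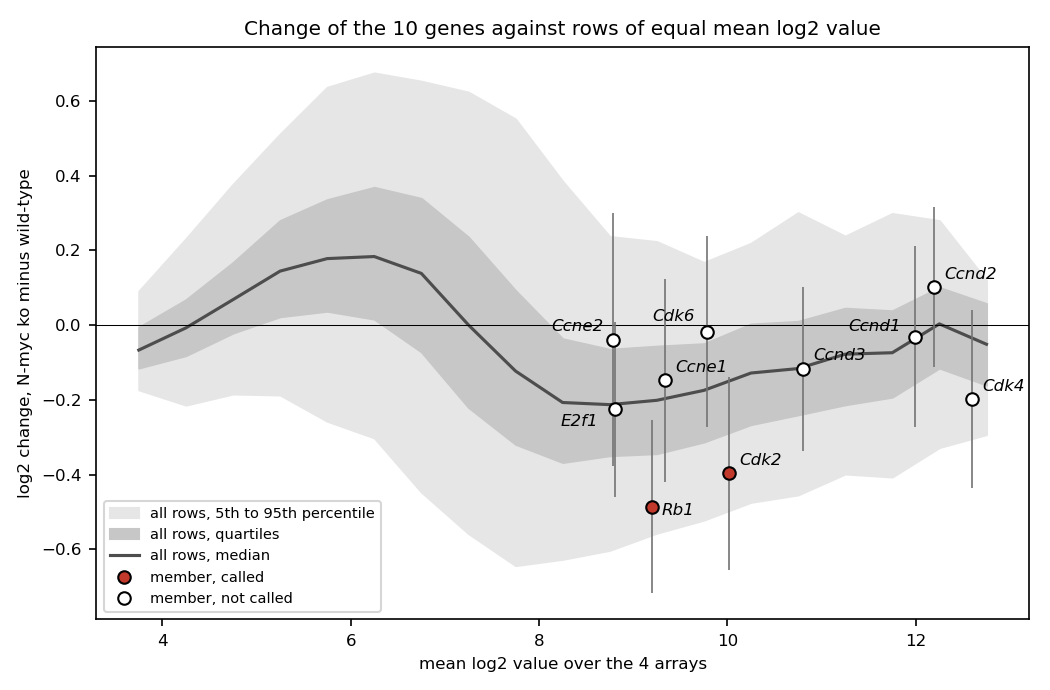
The log2 change (N-myc ko minus wild-type) of the 10 genes against their mean log2 value over the 4 arrays, with limma 95% intervals, over the median, quartiles and 5th to 95th percentile of all genes in bins of brightness. Rb1 (-0.49) and Cdk2 (-0.40), the filled points, lie below the quartile band, as does Cdk4 (-0.20), which was not called. Cdk6, Ccne2 and, by little, Ccnd2 lie above the band, and E2f1, Ccnd3 and Ccnd1 lie near the median line.

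The fall of Rb1 was called under each scaling of the arrays, while the call of Cdk2 held on the deposited values and after median centring. After quantile normalisation 20.2% of all genes were called, 10.1% lower, and Rb1 was the 1 member called, with a log2 change of -0.30 (limma adjusted p = 0.108). The Rb1 values were then 9.04 and 9.05 in N-myc ko cochleae, against 9.41 and 9.28 in wild-type cochleae, still without overlap. After cyclic loess normalisation, with 20.8% of all genes called and 9.7% lower, the change of Rb1 was -0.28 (limma adjusted p = 0.12).

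Cdk2 lost its call under both scalings, with a change of -0.25 (limma adjusted p = 0.206) after quantile and -0.23 (limma adjusted p = 0.233) after cyclic loess normalisation. The quantile-normalised Cdk2 values were 9.91 and 9.87 in N-myc ko cochleae, against 10.26 and 10.02 in wild-type cochleae, which did not overlap. Cdk4 kept nearly the same difference under the scalings, with changes of -0.18 after quantile, -0.21 after cyclic loess and -0.14 after median centring, none of them called. Cdk6 changed by 0.15 after quantile and 0.16 after cyclic loess normalisation, and Ccne2 by 0.15 and 0.16, all not called. Ccnd2 kept a difference between 0.10 and 0.16 under all 4 scalings, and was not called under any of them.

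**Figure D3:**
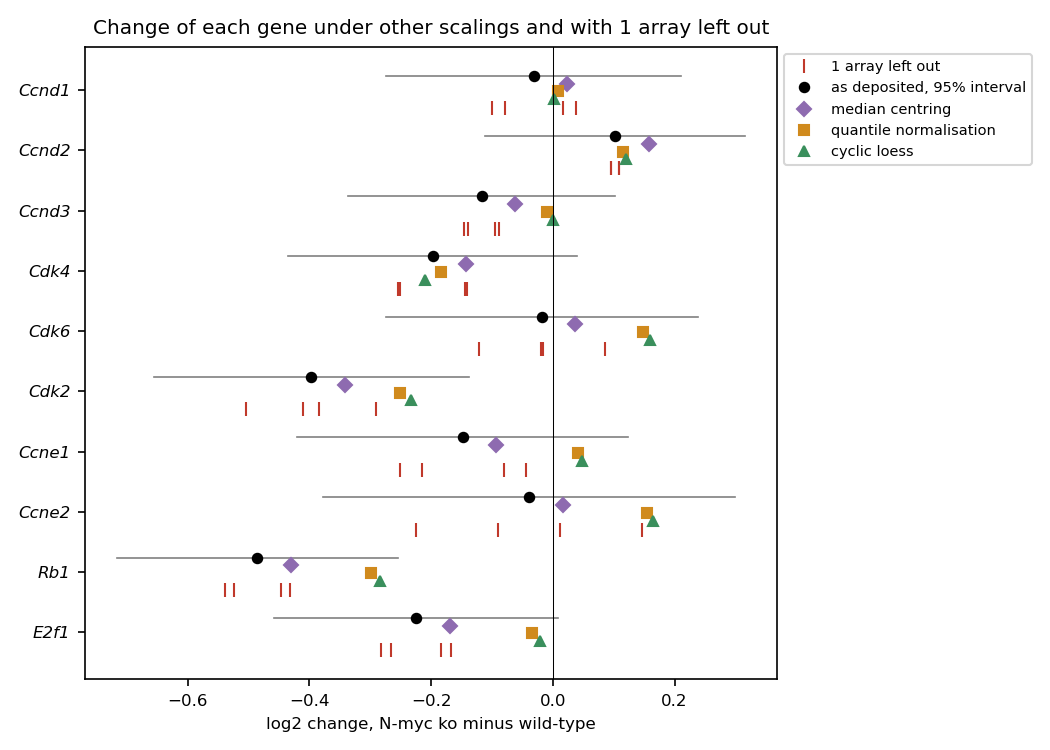
The log2 change (N-myc ko minus wild-type) of each gene on the deposited values with its limma 95% interval (black), after 3 other scalings (coloured points) and with each of the 4 arrays left out in turn (red ticks). Rb1, Cdk2, Cdk4 and E2f1 stay below 0 and Ccnd2 above 0 throughout, while Ccnd1, Cdk6, Ccne1 and Ccne2 lie on either side of 0 and Ccnd3 reaches it after cyclic loess normalisation.

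Whether paralogs changed unequally was examined for 5 pairs through the log2 difference of the pair within each array. Such a difference carries no information on which gene is more abundant, since each gene has its own probes. A change in it between the groups describes how far the changes of both genes differ on these arrays. The genes of a pair also differ in brightness, with which the change goes here. Neighbour medians were -0.04 for Cdk4 and -0.17 for Cdk6, and -0.18 for Ccne1 and -0.21 for Ccne2. They were -0.05 for Ccnd1 and Ccnd2 but -0.11 for Ccnd3. How much of a shift went with brightness was not tested. An exact two-sided permutation test over the 6 arrangements of the arrays cannot give a p below 0.333 here, so no pair could pass a threshold of 0.05. The groups did not overlap for 64.9% of single genes, and the share among other gene pairs was not counted.

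The widest shift among the D-type cyclins was that of Ccnd2 against Ccnd3. The difference Ccnd2 minus Ccnd3 was 1.54 and 1.47 in N-myc ko cochleae, against 1.31 and 1.26 in wild-type cochleae, a shift of 0.22 with no overlap between the groups (exact permutation p = 0.333, adjusted over the 5 pairs 0.417). It was 0.12 after quantile normalisation. Ccnd1 minus Ccnd2 was -0.34 and -0.19 in N-myc ko cochleae, against -0.09 and -0.17 in wild-type cochleae, a shift of -0.13 (exact permutation p = 0.333, adjusted 0.417). Its groups were separated by less than the gap between the N-myc ko replicates.

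Ccnd1 minus Ccnd3 was 1.20 and 1.28 in N-myc ko cochleae, against 1.22 and 1.08 in wild-type cochleae, and the groups overlapped (shift 0.09, exact permutation p = 0.667, adjusted 0.667). Cdk4 minus Cdk6 was 2.67 and 2.78 in N-myc ko cochleae, against 2.96 and 2.86 in wild-type cochleae, a shift of -0.18 with no overlap (exact permutation p = 0.333, adjusted 0.417). This shift was larger after quantile normalisation (-0.33) and cyclic loess normalisation (-0.37). The change of Cdk6 was then 0.15 and 0.16, while that of Cdk4 stayed near its deposited value, at -0.18 and -0.21. Median centring moves all genes of an array alike and leaves such a difference as it was. Cdk4, of the 4 E-boxes shown above, was thus lower relative to Cdk6, with its 1 E-box, on both N-myc ko arrays, and what part the E-boxes had in this was not tested.

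Ccne1 minus Ccne2 was 0.57 and 0.41 in N-myc ko cochleae, against 0.58 and 0.61 in wild-type cochleae. The groups did not overlap, but N-myc ko replicate 1 lay close to wild-type replicate 1. The shift was -0.11 (exact permutation p = 0.333, adjusted 0.417).

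**Figure D4:**
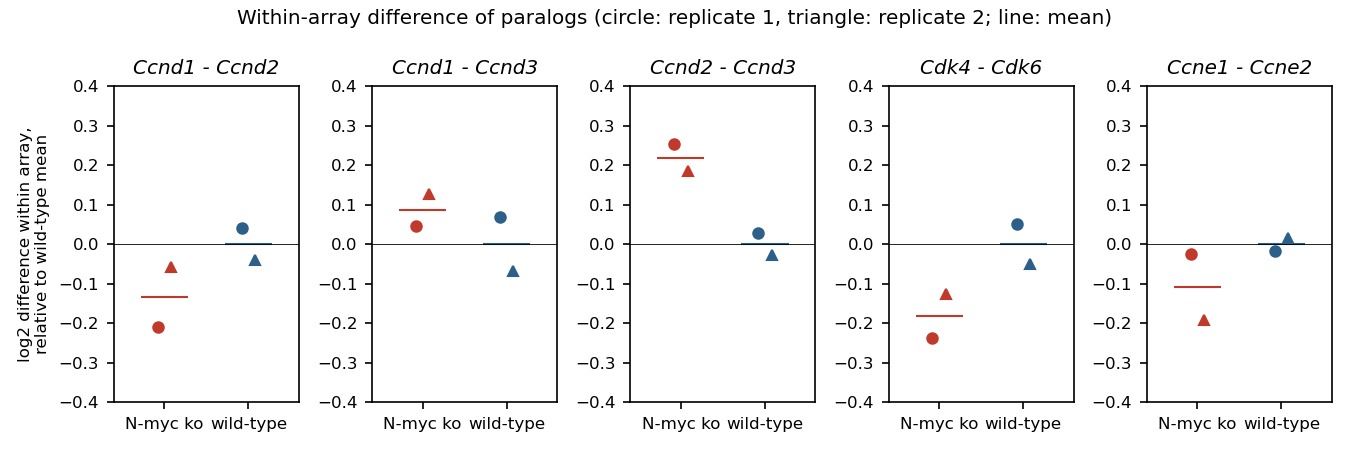
The log2 difference of 5 pairs of paralogs within each array, drawn relative to the wild-type mean of the pair, with N-myc ko in red on the left and wild-type in blue on the right, circles for replicate 1, triangles for replicate 2 and lines at the means (n = 2). Ccnd2 minus Ccnd3 shifted by 0.22 and Cdk4 minus Cdk6 by -0.18 without overlap. Ccnd1 minus Ccnd2 (-0.13) and Ccne1 minus Ccne2 (-0.11) also show no overlap, while the groups of Ccnd1 minus Ccnd3 overlap.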

How the data were processed

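RNA of 4 whole-cochlea samples was amplified, biotinylated and hybridised, per the labels' protocols. The authors deposited log2 values made with RMA and the affy package (design text of the series, submitters' processing notes), which correct the background, normalise the arrays and summarise probes into 1 value per gene. Versions, array design and probe assignment: not given in the sources used here. Arrays carry no read depth: their number limits the precision. The reference gene table's Ensembl column matched 0 of the 23879 IDs, so the planned lists of other pathway genes, Mycn and tissue markers were not analysed here.

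All genes and arrays were fitted with limma 3.58.1 in R 4.3.3 (lmFit, eBayes, two-sided, Benjamini-Hochberg over all genes), with 2 residual and 4.33 prior degrees of freedom, and no filter on dim genes. The fit and the neighbour step were tested on simulated data. The simulated shift followed a straight line with brightness, which that of the data did not. The dimmest and brightest genes were left out of that check, so the neighbour step was not tested at the levels of Ccnd1, Ccnd2 and Cdk4. The rule for named genes was to name all 10 members. The members, tests and lists were chosen with earlier results of these data known. Alternatives were other scalings, variance priors, array weights, a stricter limit, SAM (the test the design text names, rebuilt over 6 label arrangements), brighter genes alone, a replicate block, and each array left out in turn. Plots used Python 3.11.15 and matplotlib 3.10.9.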

Additional observations from a re-analysis of the deposited data

How the results depend on the processing

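The precision is limited by 2 arrays a group, and where 1 array is left out, its partner is taken to vary as much as the other group does. The 8280 genes called became 3572 at an adjusted p under 0.05, 14017 with SAM, 4816 after quantile and 4962 after cyclic loess normalisation and 4757 when the brighter genes were tested alone. Leaving out 1 array gave 3151 (without N-myc ko replicate 1) to 6559 (without N-myc ko replicate 2), with 5150 and 4931 without wild-type replicates 1 and 2. The 3561 higher calls became 1614 under 0.05, 6168 with SAM and 692 for the brighter genes, with 1436 to 3044 when 1 array was left out. They were 2402 after quantile normalisation, 2646 after cyclic loess and 4687 after median centring. The 4719 lower calls became 1958, 7849 with SAM, 2414 after quantile and 2316 after cyclic loess normalisation, with 1715 to 3515 when 1 array was left out. They were 3566 after median centring, so that higher calls outnumbered lower ones there and after cyclic loess. Among the members, the 2 called, both lower, became 1 (Rb1) at the stricter limit, after quantile and after cyclic loess normalisation, and 4 (Rb1, Cdk2, Cdk4 and E2f1) with SAM, which called 58.7% of all genes. They ranged from 1 to 2 without 1 array, with Rb1 alone called without N-myc ko replicate 1 or wild-type replicate 1, and were 3 with a brightness trend, with Cdk4 added. No member was called higher under any setting run. The members' median of -0.13 became -0.0006 after quantile and 0.0007 after cyclic loess normalisation and ranged from -0.24 (without N-myc ko replicate 2) to -0.066 (without N-myc ko replicate 1).

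Changes that turned sign belonged to genes that were not called under any setting run. Ccnd1 turned to 0.0088 after quantile normalisation, 0.0013 after cyclic loess normalisation and 0.024 after median centring, and ranged from -0.10 to 0.038 without 1 array. Cdk6 turned to 0.15, 0.16 and 0.037 under the same 3 scalings, and ranged from -0.12 to 0.086. Ccne2 turned to 0.15, 0.16 and 0.016, and ranged from -0.23 to 0.15. Ccne1 turned to 0.042 after quantile and 0.049 after cyclic loess normalisation, and Ccnd3 to 0.0001 after cyclic loess. Of the paralog shifts, Ccnd2 minus Ccnd3 moved to 0.12 after quantile and 0.12 after cyclic loess normalisation, Cdk4 minus Cdk6 to -0.33 and -0.37, and Ccnd1 minus Ccnd3 to 0.0012 after cyclic loess. Without 1 array they ranged from 0.18 to 0.25, from -0.24 to -0.12 and from 0.02 to 0.15, and Ccnd1 minus Ccnd2 ranged from -0.21 to -0.06 and Ccne1 minus Ccne2 from -0.19 to -0.03. Some settings use fewer genes or arrays by construction; beyond that, the cause was not tested.

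No source ties same-numbered samples to a shared origin, and the deviations of same-numbered arrays from their group means correlate at 0.12 across genes. With the replicate block, 8835 genes were called, and of the members Rb1 and Cdk2, as without it. The planned count of other pathway genes was not run, since their IDs could not be paired with names.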
